A study of Homo sapiens with 4 samples.

Results

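The 7SL, 7SK, U6 and Y RNA genes and their copies were examined in Raji cells, an Epstein-Barr-virus-positive line of B cells established from Burkitt's lymphoma. Members were chosen by gene symbol (7SK, RN7SK, or a name starting with RN7SK, RN7SL, RNU6- or RNY and a digit) and selected on a summed count of at least 1 read over the 4 libraries. This gave 282 members among 2037 identifiers with such a symbol and 51714 identifiers in all. By family there were 108 of 440 7SL, 86 of 286 7SK, 82 of 1256 U6 and 6 of 55 Y RNA identifiers. The threshold parted 152 members with 1 read each, just inside it, from 1755 identifiers with 0 reads. Identifiers with 0 reads add nothing to a sum, so the summed level of a family is the same with or without the threshold.

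R1810A cells (2 libraries) carried an LS*mock vector for a recombinant RPB1, the largest subunit of RNA polymerase II, that bore an HA tag, resisted α-amanitin and had alanine in place of an arginine (R1810) of its C-terminal domain. WT cells (2 libraries) carried the same vector and tag with the arginine kept. Both lines were polyclonal pools selected with G418 and then for 10 days with α-amanitin, which blocks the endogenous polymerase. Total RNA was depleted of ribosomal RNA and sequenced, to ask how transcripts change when this arginine, a site of methylation, is missing. Nothing in the labels ties the libraries of either group to different cultures, so the p-values cover a spread that may be technical. In RNA from a whole culture, fewer cells of a kind and less RNA per cell cannot be told apart.

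Summed gene counts were 2116444 and 2081636 in R1810A and 2326036 and 2991959 in WT, with reads at 16414 to 17824 identifiers per library. All 9 B cell markers had reads in every library, with MS4A1, a B cell surface protein, at 1219 to 2030.1 counts per 1000000 summed gene counts (CPM). Markers of T cells and epithelia were at or near 0, with at most 0.668 CPM in any library, and of the myeloid markers CD14 reached 0.480 CPM while CSF1R lay at 132 to 240.0 CPM and the fibroblast collagen gene COL1A1 at 1.29 to 6.25 CPM. Libraries of 1 group differed beyond sampling noise, with a chi-square statistic of their counts at 2.11 times its degrees of freedom in R1810A and 4.07 times in WT.

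The working genes of these 4 families are transcribed by RNA polymerase III, not by RNA polymerase II, whose subunit was replaced. Which polymerase made the reads at the copies was not tested. 7SL is the RNA scaffold of the signal recognition particle, which brings ribosomes with secretory proteins to the endoplasmic reticulum. 7SK holds the kinase P-TEFb inactive and so restrains elongation by RNA polymerase II, U6 forms part of the catalytic centre of the spliceosome, and Y RNAs bind the Ro60 protein. Each family has few working genes and many dispersed copies, most of them pseudogenes that arose by reverse transcription, and 7SL is also the ancestor of Alu repeats.

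The sequences of the 7SK gene and of the 7SK copy with most reads show how far a copy has diverged, and bear on the contrast between gene and copies. They are annotated transcripts of GENCODE release 29 on GRCh38, written 5′ to 3′ with T for U, and capitals mark bases of the copy that did not pair with an identical base of the gene in a pairwise alignment. Bases lost from the copy are not shown. The 7SK gene (ENSG00000202198, chr6:52995620-52995950, + strand, bases 1 to 300 of 331) lies at the locus that the annotation also gives as RN7SK. RN7SKP292 (chr4:6997012-6997328, + strand, bases 1 to 300 of 317) had 88.6% identity to it and sits in an intron of TBC1D14.
7SK: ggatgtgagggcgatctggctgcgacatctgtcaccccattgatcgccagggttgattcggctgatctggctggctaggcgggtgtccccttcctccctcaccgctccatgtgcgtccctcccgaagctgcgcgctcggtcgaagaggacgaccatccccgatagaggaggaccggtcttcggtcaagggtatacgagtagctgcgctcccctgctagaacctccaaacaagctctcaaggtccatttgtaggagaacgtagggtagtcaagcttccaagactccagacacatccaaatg
RN7SKP292: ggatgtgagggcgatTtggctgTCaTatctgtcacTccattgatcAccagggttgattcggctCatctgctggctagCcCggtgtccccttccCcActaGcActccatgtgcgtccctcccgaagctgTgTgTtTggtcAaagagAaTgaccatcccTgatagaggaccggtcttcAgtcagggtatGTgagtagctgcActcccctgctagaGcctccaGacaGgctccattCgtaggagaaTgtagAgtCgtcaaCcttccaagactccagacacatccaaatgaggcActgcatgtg

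RNY1 (chr7:148987136-148987248, - strand) was the family gene of the Y RNAs that had a read, and its sequence is shown for the family.
RNY1: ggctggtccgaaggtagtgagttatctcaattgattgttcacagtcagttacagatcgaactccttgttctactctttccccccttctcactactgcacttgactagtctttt

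In the other families, identity to the family gene was 85.2% for RN7SL160P, the member that changed most clearly, 71.3% for RN7SL40P, the 7SL copy with most reads, and 98.1% for RNU6-39P, the U6 copy with most reads.

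All 4 families had a higher summed level in both R1810A libraries than in both WT libraries, while the 7SK gene itself had nearly the same level in all 4 libraries. Apart from the 7SK gene, the family genes analysed, all of U6 and Y RNA, added few reads. RN7SL1, RN7SL2 and RN7SL3 were not analysed here, so the 7SL sum is that of copies only. These sums are thus mainly those of copies. The copies of 7SL, 7SK and U6 were each higher, with ratios of the group means between 2.05 and 2.25. Summed over all 282 members, the level was 222 and 195 CPM in R1810A, against 100.2 and 126 CPM in WT. The groups did not overlap, and the means of 208 ± 19.1 and 113 ± 18.0 CPM (SD, n = 2 each) differed by 95.2 CPM, more than either SD. No p is given for these sums, which combine chosen members. An exact permutation test of 2 against 2 libraries could not give one below 0.333. Because 7SL, 7SK and U6 copies share libraries and scaling, their like ratios are not separate observations.

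The 7SL copies summed to 97.8 CPM (95% exact counting interval 84.9 to 112) and 73.98 CPM (62.8 to 86.6) in R1810A. In WT they summed to 30.95 CPM (24.2 to 38.98) and 45.5 CPM (38.1 to 53.8). Intervals here and elsewhere cover counting error only. The lowest R1810A library lay above the highest WT library, and within WT replicate 1 was the lower of the pair. The means were 85.9 ± 16.8 CPM in R1810A and 38.2 ± 10.3 CPM in WT, a ratio of 2.25.

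For 7SK the family sum hides a contrast between the gene and its copies. The 7SK gene had 79 and 80 reads in R1810A, against 80 and 107 in WT, which is 37.3 and 38.4 CPM in R1810A and 34.4 and 35.8 CPM in WT. The 85 copies summed to 64.7 CPM (54.3 to 76.5) and 61.97 CPM (51.7 to 73.6) in R1810A, against 27.1 CPM (20.8 to 34.7) and 34.8 CPM (28.4 to 42.1) in WT. Their means were 63.4 ± 1.95 CPM in R1810A and 30.9 ± 5.43 CPM in WT, a ratio of 2.05, where the gene's ratio was 1.08. On pooled reads the counting interval of the ratio was 1.66 to 2.46 for the copies and 0.866 to 1.34 for the gene. The difference between gene and copies was not tested. Only 16.9% of the gene's 36-base stretches were unique among annotated transcripts, against a median of 94.9% for 7SK members. How reads with several matches were counted is not given, so the gene's own level is uncertain.

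U6 copies had few reads, 43 and 36 in R1810A and 18 and 27 in WT. They summed to 20.3 CPM (14.7 to 27.4) and 17.3 CPM (12.1 to 23.9) in R1810A, against 7.74 CPM (4.59 to 12.2) and 9.02 CPM (5.95 to 13.1) in WT. The group means of 18.8 ± 2.14 and 8.38 ± 0.909 CPM gave a ratio of 2.24. Y RNA identifiers held 3 and 6 reads in R1810A and 0 and 2 in WT. With 9 and 2 reads per group the pooled ratio was 5.70 with a counting interval of 1.18 to 54.2, so its size was not resolved at this depth.

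**Figure D1:**
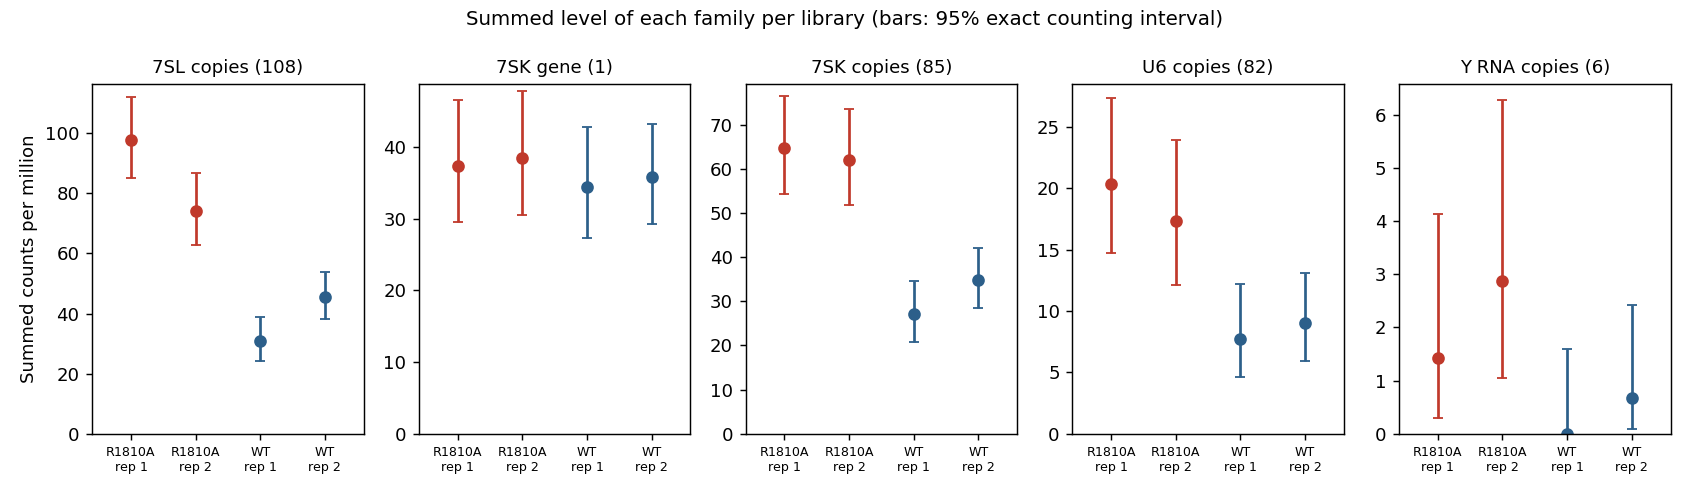
Summed CPM (y axis) of each family in each library (x axis, R1810A in red and WT in blue), with 95% exact counting intervals as bars and the number of members in brackets. The R1810A points lie above the WT points for the 7SL, 7SK and U6 copies, whereas the 7SK gene lies between 34.4 and 38.4 CPM in all 4 libraries.

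Single copies could be tested only where they had enough reads. The filter on low counts kept 10674 genes, of which 5 were members, and left 277 members untested. Across the 10674 genes edgeR's quasi-likelihood test called 37 higher (0.347%) and 1 lower in R1810A at a Benjamini-Hochberg adjusted p under 0.05. Of the 5 members, 1 was called, the 7SL copy RN7SL160P, and 4 had an unadjusted p under 0.05 with a positive change, against 4.94% of all genes tested. In all 5 both R1810A values lay above both WT values, as in 19.8% of the genes tested, and in 4 of the 5 when scaled by the deposited total reads. These 5 passed a filter that a gene can pass through the group where it is high, so their counts are a description and support nothing about the other members.

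RN7SL160P (ENSG00000241159) had 41 and 35 reads in R1810A, against 5 and 12 in WT. The groups were far apart, with 18.3 ± 2.00 CPM in R1810A and 3.09 ± 1.28 CPM in WT (SD, n = 2 each, TMM-scaled). It rose by a log2 fold change of 2.49 (SE 0.36, edgeR adjusted p = 0.013), that is 5.63-fold. The call was lost without WT replicate 1 (log2 fold change 2.18, edgeR adjusted p = 0.056) and without WT replicate 2 (3.03, adjusted p = 0.107).

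RN7SL40P (ENSG00000242696) had the most reads of any 7SL copy, 53 and 33 in R1810A and 24 and 37 in WT. Replicate 1 of R1810A was well above its partner, and the means were 20.6 ± 6.75 CPM in R1810A and 11.4 ± 1.27 CPM in WT. Its log2 fold change of 0.84 (SE 0.29) missed the threshold with edgeR (adjusted p = 0.470), and it was 0.46 without R1810A replicate 1.

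RN7SL679P, another 7SL copy, had 13 and 11 reads in R1810A and 3 and 8 in WT, with a log2 fold change of 1.45 (SE 0.52, edgeR adjusted p = 0.491). RN7SKP292 had 12 and 10 reads in R1810A and 3 and 6 in WT, with a log2 fold change of 1.61 (SE 0.54, edgeR adjusted p = 0.438). In both, the groups did not overlap but the test was not passed. The 7SK gene had a log2 fold change of 0.11 (SE 0.17, edgeR adjusted p = 0.900), and its direction turned to -0.01 when libraries were scaled by the deposited total reads. That scaling put the median log2 fold change of all genes tested at -0.13, against -0.0046 with TMM.

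Per length, the authors' deposited RPKM placed the 7SK gene highest among these members, at 59.4 and 58.5 in R1810A and 59.0 and 59.8 in WT. The nearest copy in WT was RN7SL40P, with 51.7 and 31.3 RPKM in R1810A and 23.0 and 26.8 in WT. RN7SL160P stood at 34.4 and 28.5 RPKM in R1810A and 4.11 and 7.47 in WT. So in WT the order was 7SK, RN7SL40P, RN7SL160P with no overlap between neighbours, whereas in R1810A the values of both 7SL copies overlapped. These RPKM are relative to the deposited total reads, not to the summed gene counts.

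A further group of copies had 10 or more reads without passing the filter. Of the 24 copies with 10 or more reads, the 7SK gene aside, 24 had a higher mean CPM in R1810A and 18 had no overlap between groups, all of these higher, where 16.5% of all identifiers with a read and 19.8% of the genes tested were higher without overlap. A copy can reach 10 reads through the group where it is high, so this too is a description. Ratios of mean CPM ran from 1.23 to 8.53 with a median of 2.85. The lowest, named for its value, was RN7SKP124, with 4 and 5 reads in R1810A and 5 and 4 in WT. The highest was RNU6-39P, with 8 and 4 reads in R1810A and 0 and 2 in WT, a pooled ratio of 7.60 whose counting interval ran from 1.69 to 69.9.

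RN7SKP130 had 10 and 9 reads in R1810A and 2 and 4 in WT. RN7SKP200 had 12 and 5 reads in R1810A and 2 and 6 in WT, so its groups were close. RNU6-1201P, in CBX1, had 4 and 4 reads in R1810A and 2 and 0 in WT, and the third place was shared by RNU6-1016P, with 1 and 1 in R1810A and 0 and 2 in WT, and RNU6-759P, with 0 and 1 in R1810A and 0 and 3 in WT. The next 3 copies were chosen after their values were seen. RN7SKP55, outside other genes, had 6 and 9 reads in R1810A and 2 and 1 in WT. RN7SL546P had 9 and 10 reads in R1810A and 1 and 7 in WT, with a wide gap between the WT libraries. RN7SL236P showed how thin these counts are, with 5 and 3 reads in R1810A and 0 and 9 in WT.

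**Figure D2:**
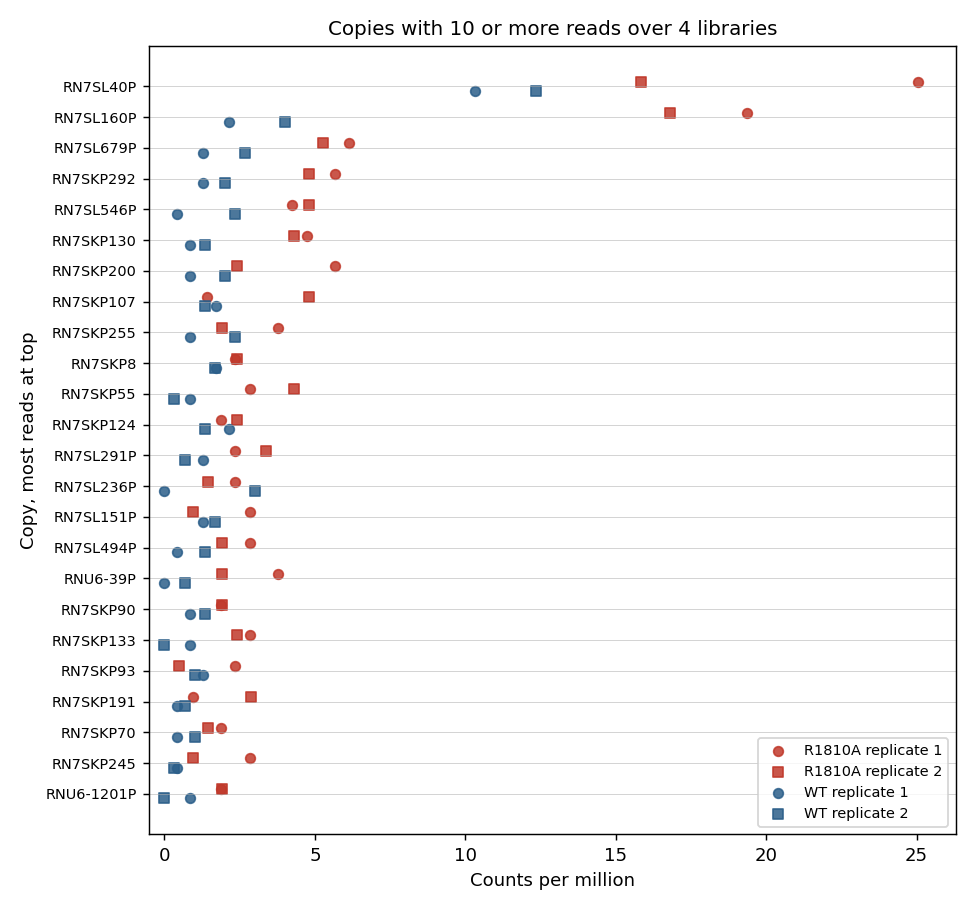
CPM (x axis) of the 24 copies with 10 or more reads over the 4 libraries (y axis, most reads at the top), R1810A in red and WT in blue, circles for replicate 1 and squares for replicate 2. RN7SL40P and RN7SL160P stand apart from the rest, and in 18 of the 24 copies both red points lie to the right of both blue points. The same held for 16.5% of all identifiers with a read, however few, and for 19.8% of the genes tested. A copy can reach 10 reads through the group where it is high.

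The remaining 257 members had fewer than 10 reads each and were counted together. They summed to 72.3 and 64.4 CPM in R1810A, against 33.1 and 44.5 CPM in WT, again with no overlap. The 152 members with 1 read each gave 44 and 45 reads in R1810A and 24 and 39 in WT, a pooled ratio of 1.79 (counting interval 1.28 to 2.51). The higher sums thus held outside the few abundant copies: without 7SK, RN7SL40P and RN7SL160P the 279 other members stood at 139.9 and 123 CPM in R1810A and 53.3 and 73.5 CPM in WT. Without RN7SL40P and RN7SL160P the 7SL copies had a ratio of 1.99.

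Copy by copy, 52 of all 282 members (18.4%) had both R1810A values above both WT values and 13 (4.61%) had both below. Over all 21612 identifiers with a read these shares were 16.5% and 14.0%. A gene with 1 read can show neither pattern, so these shares depend on reads per gene. Set side by side, they cannot say whether members differ from other genes. Reads were present in R1810A libraries only for 118 members (41.8%) and in WT libraries only for 78 (27.7%), where all identifiers with a read gave 10.5% and 12.7%. A gene with 1 read always has reads in 1 group only. Members with 1 read were 152 of 282, against 3729 of all 21612 identifiers with a read. The shares with reads in 1 group only thus also depend on reads per gene. By family, reads in R1810A only and in WT only were seen for 45 and 33 7SL, 25 and 14 7SK, 44 and 31 U6, and 4 and 0 Y RNA members.

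**Figure D3:**
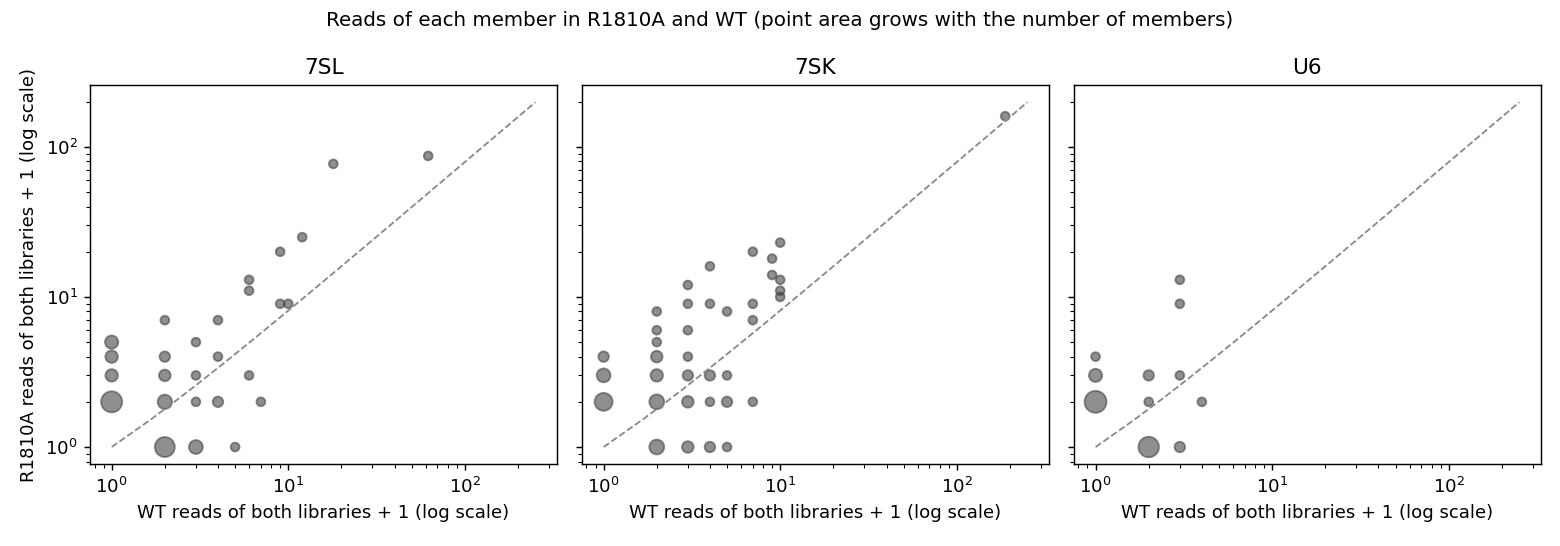
Reads of each member summed over both R1810A libraries plus 1 (y axis, log scale) against those over both WT libraries plus 1 (x axis, log scale), for 7SL, 7SK and U6, with larger points where several members coincide and a dashed line at equal CPM. Most members have only a few reads, the 7SK gene at the upper right lies on the line, and RN7SL160P with 76 and 17 reads lies farthest above it among the abundant copies.

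Among the family genes analysed, few reads were listed except at 7SK. RNU6-1 had 0 and 1 reads in R1810A and 0 and 0 in WT, and RNU6-2, of identical sequence, had 2 and 1 in R1810A and 0 and 0 in WT. RNU6-7, RNU6-8 and RNU6-9 had 0 reads in all libraries, as had RNY3 and RNY4. RNY1 had 0 and 1 reads in R1810A and 0 and 0 in WT. RN7SL1, RN7SL2, RN7SL3 and RNY5 were not analysed here. The other Y RNA members were RNY1P13 (0 and 3 reads in R1810A, none in WT), RNY1P12 (0 and 1 in R1810A, 0 and 1 in WT), RNY3P8 (1 and 0 in R1810A, 0 and 1 in WT), RNY4P10 (1 and 1 in R1810A, none in WT) and RNY1P7 (1 and 0 in R1810A, none in WT).

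How much of a copy's sequence is its own bears on what can be counted for it. No 36-base stretch of RNU6-1, RNU6-2, RNU6-7, RNU6-8 or RNU6-9 was absent from the annotated transcripts of other genes. The length of 36 bases is a setting of this comparison, since no read length was found in the sources used. The median member had 96.3% of its 36-base stretches unique among annotated transcripts. Every such stretch of RN7SL160P was unique, while the share was 86.6% for RN7SL40P, 16.9% for the 7SK gene and 38.9% for RNU6-39P. There were 4 members with no unique stretch, and they held 8 reads in all.

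Copies closer in sequence to the 7SK gene had reads more often. Of the 7SK copies, 3 of 62 with under 70% identity had a read, 28 of 115 with 70 to 80%, 50 of 103 with 80 to 90% and 4 of 5 above that. For 7SL the shares were 2 of 7 copies under 70% (among them RN7SL832P, annotated at 1756 bases against a deposited length of 294), 24 of 128 copies at 70 to 80% identity and 82 of 305 at 80 to 90%. For U6 the shares also climbed with identity. They were 1 of 23 under 70%, 16 of 318 at 70 to 80%, 45 of 762 at 80 to 90%, 17 of 137 at 90 to 99% and 3 of 16 above. The closest 7SK and U6 copies had less sequence of their own. The median share of unique 36-base stretches was 100% under 70% identity in both families. In the highest bin it was 68.1% for 7SK and 0% for U6. The 7SL copies showed no such fall, with 73.8% under 70% identity, 98.6% at 70 to 80% and 97.3% at 80 to 90%. Whether the share of unique stretches bears on how often copies had reads was not tested. The 7SK copies with 80 to 90% identity held 87 and 84 reads in R1810A and 36 and 73 in WT. Those with 70 to 80% held 41 and 32 reads in R1810A and 24 and 25 in WT.

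**Figure D4:**
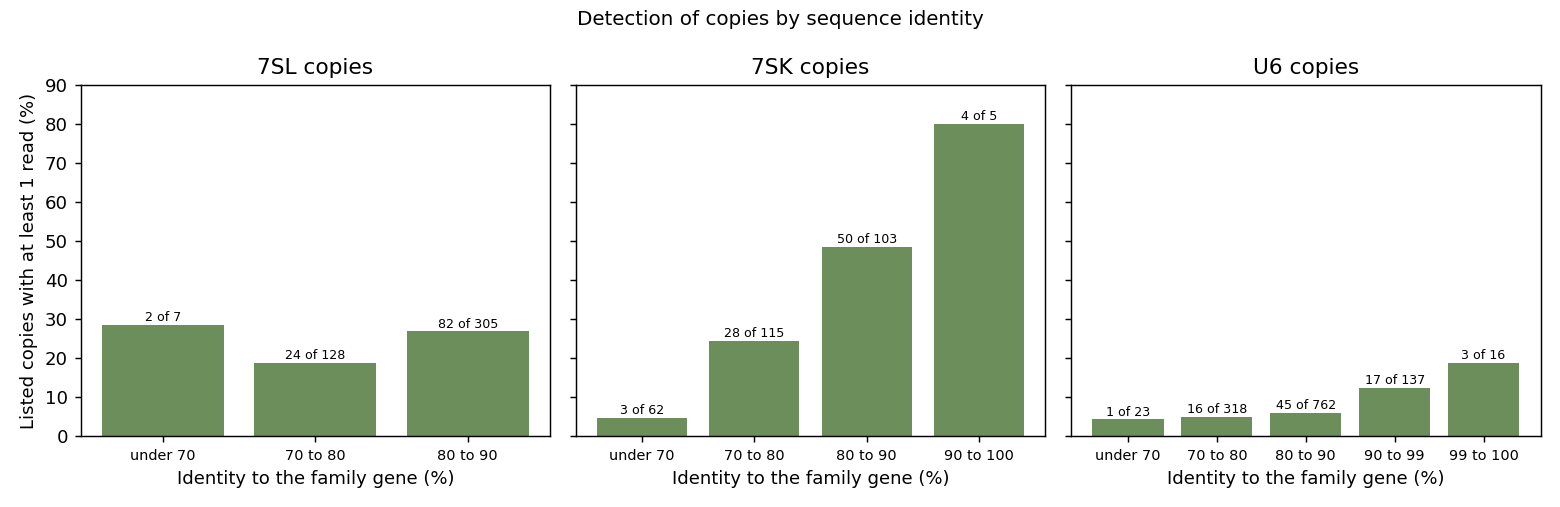
Share of listed copies with at least 1 read (y axis, percent) by identity to the family gene (x axis, percent of the copy's bases), for 7SL against RN7SL1, 7SK against the 7SK gene and U6 against RNU6-1, with counts above the bars. The share climbs with identity for 7SK, to 4 of 5 in the highest bin, and for U6, to 3 of 16. The 7SL bars show no such order.

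Copies lie both inside and outside other genes, on 24 chromosomes in all. By the GRCh38 annotation, 91 members lay outside other genes (short RNA genes not counted), 110 overlapped one on the same strand and 81 on the opposite strand only. Copies outside genes summed to 77.0 and 68.2 CPM in R1810A, against 28.8 and 34.4 CPM in WT, the 7SK gene left out. Copies on the same strand as a gene gave 52.9 and 37.0 CPM in R1810A, against 19.8 and 27.1 CPM in WT. Those on the opposite strand gave 54.3 and 50.9 CPM in R1810A, against 17.2 and 28.4 CPM in WT. The higher level was thus present in each position, with ratios of the means of 2.30 outside genes, 1.92 on the same strand and 2.31 on the opposite strand. The labels do not say whether counting used strand.

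The genes around the copies had changes centred near 0. Of 138 tested genes that hold 142 of the copies, 65 had a positive log2 fold change, and the median was -0.03, near the -0.0046 of all genes tested. None was called by edgeR. At an unadjusted p under 0.05 in edgeR, 9 were higher and 2 lower, where 4.94% of all genes tested were higher. TBC1D14, which holds RN7SKP292, had a log2 fold change of 0.08 (SE 0.12), and CBX1, which holds RNU6-1201P, of -0.32 (SE 0.28).

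Other families of short RNA set the scale. U5 snRNA summed to 533 and 247 CPM in R1810A, against 46.9 and 43.8 CPM in WT, and U2 to 192 and 73.98 CPM in R1810A, against 23.6 and 26.1 CPM in WT. In these the 2 R1810A libraries lay more than 2-fold apart, whereas the 7SK copies were at 64.7 and 61.97 CPM and the U6 copies at 20.3 and 17.3 CPM. U1 stood at 49.1 and 24.5 CPM in R1810A and 9.46 and 16.4 CPM in WT, and U4 at 85.99 and 37.95 CPM in R1810A and 20.6 and 24.7 CPM in WT. These differences between families were not tested.

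A further set of values was added after the members' values were seen, to show other genes with as few reads. The 8156 other identifiers with 1 to 9 reads summed to 2430 and 2445 CPM in R1810A, against 1994 and 2441 CPM in WT, with overlapping groups and a ratio of 1.10. Within them, 111 snoRNA genes gave a ratio of 2.02, 54 snRNA genes 1.84 and 73 genes annotated misc_RNA 1.93. Protein-coding genes gave 1.05, processed pseudogenes 1.18 and lincRNA genes 0.894. The groups did not overlap in the snoRNA, snRNA, misc_RNA and processed pseudogene sums, and did in the protein-coding and lincRNA sums. The other identifiers were set apart by symbol only, so the snRNA and misc_RNA genes may include family copies under other names. By the snoRNA and processed pseudogene sums, higher sums in R1810A were not confined to the 7SL, 7SK, U6 and Y families.

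**Figure D5:**
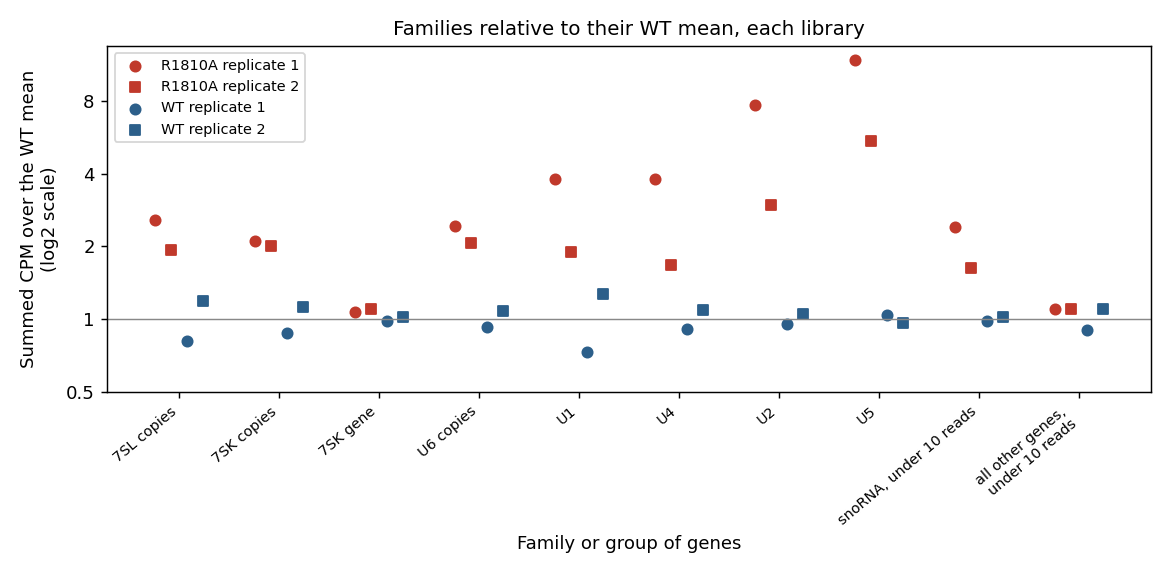
Summed CPM of each family or group of genes divided by its WT mean (y axis, log2 scale), for each library, R1810A in red and WT in blue, circles for replicate 1 and squares for replicate 2. The 7SK copies lie near 2 in both R1810A libraries. In R1810A replicates 1 and 2 the 7SL copies lie at 2.56 and 1.94 and the U6 copies at 2.42 and 2.06. U2 and U5 lie higher and farther apart, and the 7SK gene and all other genes with under 10 reads lie near 1.

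Genes for the proteins that make, bind or mature these RNAs were not called. Of 66 in 6 lists, all tested, 35 had a positive log2 fold change and the median was 0.0094, against -0.0046 for all genes tested. None was called by edgeR, by DESeq2 or by limma-voom. At an unadjusted p under 0.05 in edgeR, 5 were higher and 2 lower, where 4.94% of all genes tested were higher. Among 13 subunits of RNA polymerase III the median was 0.0081. POLR3G, a subunit found in one form of the enzyme, had 56 and 61 reads in R1810A and 42 and 41 in WT (log2 fold change 0.83, SE 0.24, edgeR adjusted p = 0.307), while its paralog POLR3GL had 20 and 17 in R1810A and 30 and 40 in WT (-0.57, SE 0.29).

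The 19 transcription factors of this polymerase and of short RNA genes had a median of -0.0009. BDP1, a part of TFIIIB, stood at 0.50 (SE 0.14, edgeR adjusted p = 0.299), and GTF3C2, a part of TFIIIC, at -0.33 (SE 0.11, adjusted p = 0.392). The 7 genes of the 7SK particle and P-TEFb had a median of 0.05, with MEPCE, which caps 7SK, at 0.20 (SE 0.14) and the inhibitor gene HEXIM2 at 0.49 (SE 0.35). The 8 genes of the signal recognition particle and its receptor had a median of 0.01, with SRP14 at -0.26 (SE 0.19) and SRPRA at -0.18 (SE 0.14).

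Of 4 genes for Y RNA binding proteins (median 0.02), RO60 had 659 and 592 reads in R1810A and 473 and 822 in WT (log2 fold change 0.32, SE 0.14, edgeR adjusted p = 0.606) and PUF60 stood at 0.09 (SE 0.14). The 15 genes of the U6 particle had a median of 0.01. LSM3, in the ring that binds the end of U6, had 93 and 97 reads in R1810A and 146 and 243 in WT (-0.67, SE 0.16, edgeR adjusted p = 0.186), and LSM7 stood at -0.29 (SE 0.14). Neither list held a called gene.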

How the data were processed

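RNA depleted of ribosomal RNA with a capture kit (from 5 µg of total RNA, per the labels' protocols) was read on an Illumina GAII from 2 R1810A and 2 WT libraries of Raji cells. The submitters' processing notes name Bowtie and hg19. How the reads were counted (program, annotation release, strand, reads with several matches) is not given in the sources used here. Per the file headers, the authors deposited whole-number read counts per Ensembl gene. The deposited RPKM matched the count per 1000 bases of deposited gene length and per 1000000 deposited total reads for each gene (relative tolerance 0.0001). What the deposited total reads number counts is not stated.

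Gene symbols were looked up in a current name table and in GENCODE release 29 (GRCh38), and the release also gave positions, neighbours and sequences. Symbols were found for 40926 of 51714 identifiers, and the 10788 without a symbol held 7.49% of counts. Gene lengths in that release can differ from the deposited ones. Coordinates of the build used for counting were not used. Copies were aligned to their family gene with Biopython 1.88 (global, free end gaps), and near-identical copies make values of single copies uncertain.

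R1810A was compared with WT over all genes in R 4.3.3 by edgeR 4.0.16's quasi-likelihood test (low counts removed by filterByExpr, TMM scaling, Benjamini-Hochberg adjustment, threshold 0.05). The SE was taken as the log2 fold change over the root of F. Family sums are CPM of the summed gene counts, with exact Clopper-Pearson or conditional binomial intervals at 95%. Alternatives were DESeq2 1.42.0, limma-voom (limma 3.58.1), no filter, other scalings, a replicate block, fewer copies and each library left out. The fits were tested on simulated data. Named members are those that passed the filter, the family genes and the 3 copies of each family with most reads, and for protein lists called genes or else the 2 with the smallest p. The members and lists were chosen with earlier results of these data known. Some sequences and genes are not reported here.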

Additional observations from a re-analysis of the deposited data

How the results depend on the processing

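RN7SL160P was the only member called with edgeR, DESeq2 or limma-voom. The same held in edgeR with no filter, RLE size factors, the deposited total reads or the replicate block. Its log2 fold change lay between 2.18 and 3.03 over 10 alternatives. With 1 library left out the number of members called was 0 to 1, being 0 without either WT library. In those fits the lone library is assumed to vary like the other group. The count of all genes called, 38 with edgeR, was 25 with limma-voom, 85 with no filter, 77 with the replicate block and 2 to 88 with a library left out, the lowest without WT replicate 2. Same-numbered libraries did not deviate together (correlation -0.04 over 1 pair), so the block shares only a number. The 7SK gene turned to a log2 fold change of -0.011 with the deposited total reads. Without the filter, 65 members had no overlap between groups in either direction, since 282 rather than 5 were then counted. Of the 282, 18.4% were higher and 4.61% lower without overlap, against 16.5% and 14.0% of all identifiers with a read. Such shares depend on reads per gene. The ratio of the 7SK family sum, 1.53, was 1.33 for copies outside other genes, which keep the 7SK gene, and 2.05 without that gene. The U6 ratio, 2.24, was 3.74 for copies outside other genes, on 18 and 6 reads, and the cause was not tested. Leaving out a library gave ratios of 1.89 to 2.77 for 7SL, 1.44 to 1.65 for 7SK, 2.06 to 2.43 for U6 and 3.22 to 8.62 for Y RNA. Without WT replicate 2 no Y RNA ratio could be given, as no WT read was left. No protein gene of the 6 lists was called under any of the 10 alternatives. Depth limits single copies: 277 of 282 members had too few reads to test.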

Other observations

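Other short RNAs made by RNA polymerase III had few reads. Identifiers of 5S rRNA and its pseudogenes (12 with a read) held 31 and 7 reads in R1810A, against 2 and 7 in WT. In CPM these were 14.6 and 3.36 in R1810A and 0.860 and 2.34 in WT, with no overlap. R1810A replicate 1 stood well above the rest. The groups differed by less than the spread within R1810A (SD 7.98 CPM, against a difference of means of 7.41 CPM, n = 2 each). On pooled reads the ratio was 5.35, with a counting interval of 2.54 to 12.6. The vault RNA identifier with reads had 3 and 0 in R1810A, against 1 and 1 in WT. U6atac identifiers had 0 and 2 reads in R1810A, against 0 and 1 in WT.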
